A study of Oryza sativa Japonica Group with 4 samples.

Results

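In 2065 places of the rice genome, a region enriched for lysine crotonylation in general lay wholly inside a larger region enriched for crotonylation of lysine 14 of histone H3. These nested Kcr regions made up 18.9% of the 10923 Kcr regions (95% Wilson interval 18.2 to 19.7%), and 2048 of the 18813 H3K14cr regions held at least 1 of them. They were chosen by the positions of both borders in 2 lists. The Kcr region had to be at most 2000 bp wide, to start at or after the start of the H3K14cr region and to end at or before its end. Pairs in which both starts and both ends differed by at most 100 bp were left out as having matching borders. Borders, widths and overlap thus chose the members, and what is said of them below is a description, with no test.

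The material was seedling tissue of the japonica cultivar Nipponbare, mainly leaf, from seeds germinated for 72 h and plants sampled at 2 weeks; no group was treated. Chromatin immunoprecipitation with sequencing (ChIP-seq) was done with a pan anti-Kcr antibody in 2 libraries and with an H3K14cr antibody in another 2. A mock precipitation with normal rabbit serum is described in the labels and is not analysed here. Each antibody has 1 list of regions for both of its libraries, with a chromosome, a start and an end for each region. Neither read numbers nor peak scores are in the lists as used here, so the depth is unknown, no spread between replicates could be computed and no p-value is given. Intervals cover counting error over regions only, and regions of 1 list are not replicates.

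Crotonylation is the addition of a short unsaturated acyl chain to a lysine, made from crotonyl-CoA. It neutralises the positive charge of the lysine as acetylation does, and its planar chain is recognised by YEATS domains and by the double PHD finger of the human acetyltransferase MOZ, which binds H3K14cr. In mammalian cells histone crotonylation is known from active promoters and enhancers. A pan antibody is raised against the crotonyl group on any lysine and an H3K14cr antibody against 1 such site, so H3K14cr chromatin falls in principle within what a pan antibody can see. A nested pair is a place where the list for the single site reached farther than the list for all sites. Whether either antibody binds other acyl marks was not tested.

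The nested Kcr regions covered 58.9% of the bases of their H3K14cr regions, which are called hosts below. Together they spanned 2.50 Mb, inside hosts of 4.24 Mb. The median nested Kcr region was 1158 bp wide (95% interval of the median 1143 to 1178 bp, interquartile range 965 to 1431 bp), and over the 2065 pairs the median host width was 1849 bp (1805 to 1887 bp). The median share of a host covered by its Kcr region was 66.6% (65.5 to 68.2%), and the median length left uncovered was 583 bp (530 to 622 bp). The spread was wide. In 503 pairs, or 24.4%, the Kcr region of the pair covered under 50% of the host, and in 47 pairs it covered under 25%.

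The stretch of host beyond a Kcr border is called an overhang here. The smaller of the 2 overhangs of a pair had a median of 84 bp (80 to 89 bp) and the larger a median of 451 bp (419 to 487 bp). In 708 pairs, or 34.3% (32.3 to 36.4%), exactly 1 border was shared within 50 bp. These are called one-border pairs. Over all 7027 overlapping pairs of the lists, nested or not, 40.5% shared exactly 1 border within 50 bp. The nesting rule acts on the same borders, so nothing follows from the lower share in nested pairs. In the other 1357 pairs, or 65.7%, both overhangs were longer than 50 bp. This majority rests on the 50 bp limit, since one-border pairs made up 56.5% where borders counted as shared within 100 bp. In the 1357 two-sided pairs the medians were 131 bp (124 to 137 bp) for the smaller and 533 bp (482 to 578 bp) for the larger. Both overhangs were at most 200 bp in 293 of these two-sided pairs, and both were longer than 500 bp in 127.

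**Figure D1:**
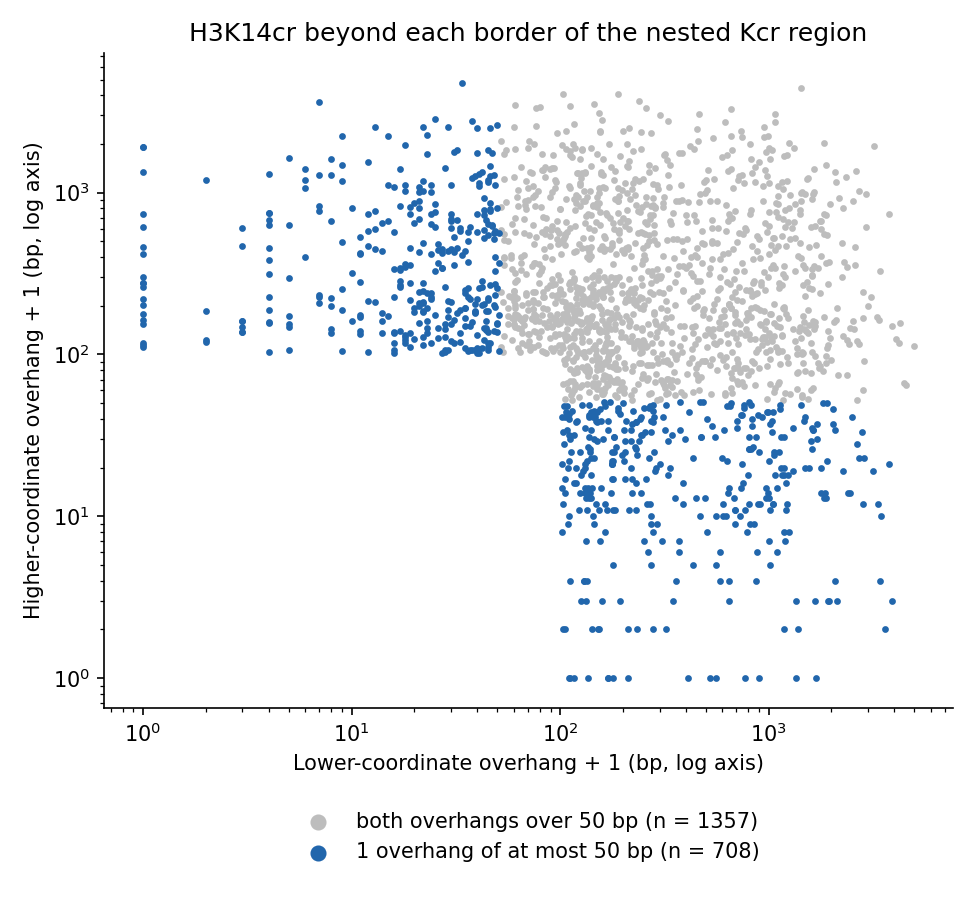
Each point is 1 of 2065 nested pairs, placed by the length of H3K14cr (bp + 1, log axes) beyond the lower-coordinate and the higher-coordinate border of Kcr. The 708 pairs with an overhang of at most 50 bp are split about evenly between both arms (342 lower, 366 higher), and the empty corner is the 100 bp margin of the rule.

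Kcr regions of one-border and two-sided pairs had the same median width, while their hosts did not. The median Kcr width was 1158 bp in both kinds (interval 1137 to 1192 bp in one-border pairs and 1138 to 1181 bp in two-sided pairs). The median host width was 1677 bp (1624 to 1731 bp) in one-border pairs and 1961 bp (1895 to 2011 bp) in two-sided pairs. A free second border adds uncovered host by definition, so part of this difference is built into the split.

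With all uncovered lengths pooled, no preference for one end of the host was seen. Of the one-border pairs, 342 shared the lower-coordinate border and 366 the higher, a lower share of 48.3% (44.6 to 52.0%). Lower and higher numbered 143 and 146 with 101 to 249 bp uncovered, 72 and 65 with 250 to 499 bp, and 67 and 69 with 500 to 999 bp. The higher border was shared more often at greater lengths, with 47 lower and 65 higher at 1000 to 1999 bp. At 2000 bp or more these were 13 and 21. Over all nested pairs the lower overhang was the longer in 1057 and the higher in 1007, with 1 tie. The overhang at the free end had a median of 281 bp (244 to 368 bp) in pairs that shared the lower border and 285 bp (257 to 388 bp) in pairs that shared the higher. Coordinates run along the reference strand and say nothing of the direction of transcription. The sides were also compared between neighbours, which says nothing of that direction either. Successive one-border pairs along a chromosome shared the same side in 336 of 696 cases, or 48.3% (44.6 to 52.0%). Where they lay within 20 kb of each other this was 17 of 33. Some borders coincided to the base, with both starts identical in 19 pairs and both ends identical in 15.

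The pairs with an identical border were ranked by uncovered length, which in them is the free end on the other side, and the first 3 are given. On chromosome 12 both regions started at 1059636, and Kcr ended at 1061382 while H3K14cr went on to 1063298, 1916 bp farther. On chromosome 1 both started at 43124641, and Kcr ended at 43125866 while H3K14cr ended at 43127781, an overhang of 1915 bp. On chromosome 4 the shared border was the higher one, at 17942071. There H3K14cr began at 17939221 and Kcr at 17940899, an overhang of 1678 bp. Kcr covered 47.7%, 39.0% and 41.1% of these hosts.

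Kcr widened less than its host. In hosts under 1500 bp (601 pairs) the median Kcr region was 961 bp wide and covered 79.8% of the host. In hosts of 1500 to 1999 bp (590 pairs) it was 1231 bp wide and covered 73.2%. In hosts of 2000 to 2999 bp (579 pairs) it was 1341 bp wide and covered 55.2%. It was 1363 bp in hosts of 3000 to 3999 bp (195 pairs), a coverage of 39.6%, and 1456 bp in hosts of 4000 bp or more (100 pairs), a coverage of 31.0%. From 2000 bp of host upwards the interquartile ranges of Kcr width overlapped, running from 1104 to 1594 bp in the first of these classes and from 1183 to 1731 bp in the last. Kcr cannot exceed its host or 2000 bp by the rule, which caps widths at both ends of this series.

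**Figure D2:**
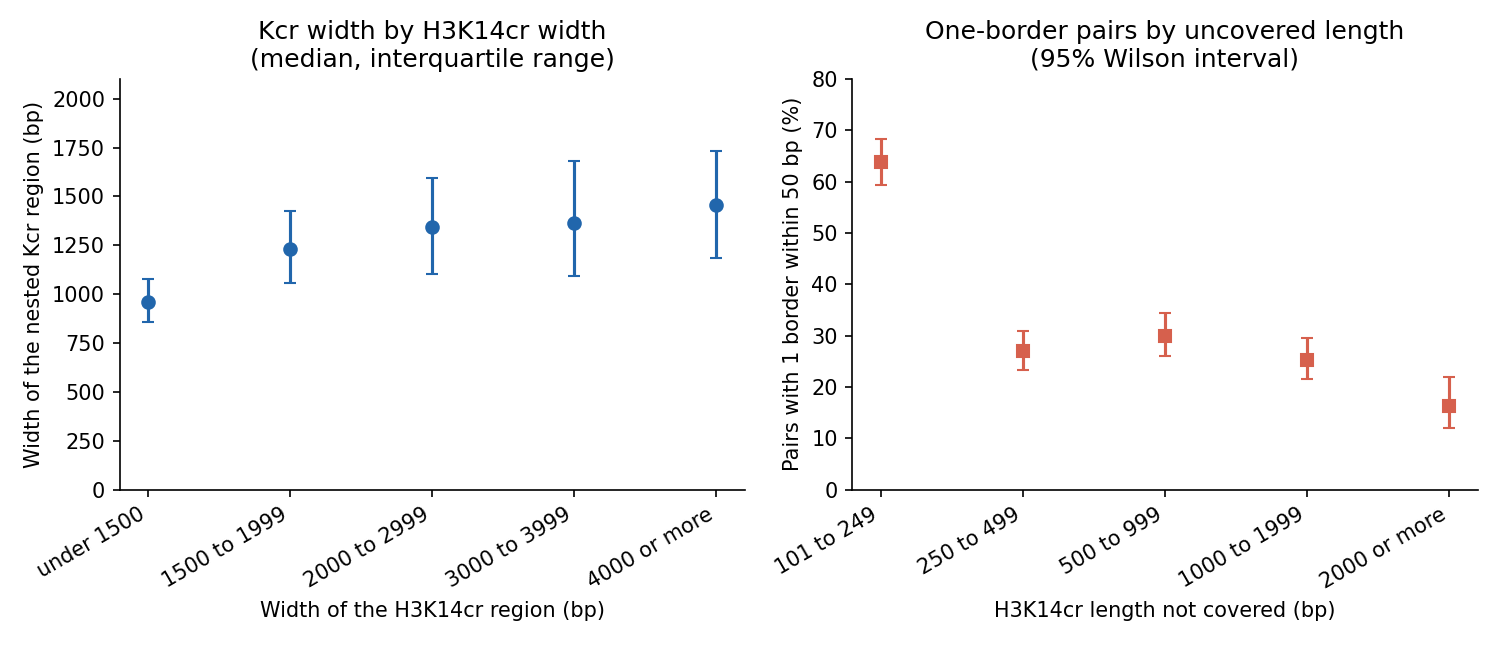
Left, the width of nested Kcr regions (bp, median with interquartile range) in 5 classes of H3K14cr width, rising from 961 to 1456 bp. Right, the share of pairs with exactly 1 border within 50 bp (%, with 95% Wilson intervals) in 5 classes of uncovered length, 63.9% in the shortest class and 16.3% in the longest. The 100 bp margin of the rule fixed part of the share in the shortest class.

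The overhangs of a pair add up to the uncovered length, so a limit of 50 bp is met less readily as that length grows, wherever Kcr lies. With 101 to 249 bp uncovered (452 pairs), 63.9% (59.4 to 68.2%) shared 1 border within 50 bp. The rule fixed part of this share, since its 100 bp margin keeps the larger overhang of every nested pair above 100 bp. In the pairs of this class with the least uncovered length, the smaller overhang therefore had to be at most 50 bp. With 250 to 499 bp uncovered (509 pairs) the share was 26.9% (23.2 to 30.9%), with 500 to 999 bp (453 pairs) 30.02% (26.0 to 34.4%) and with 1000 to 1999 bp (443 pairs) 25.3% (21.5 to 29.5%). The middle 3 classes thus had overlapping intervals, although the uncovered length increased from one to the next. With 2000 bp or more uncovered (208 pairs) it was 16.3% (11.9 to 22.0%), or 34 pairs. In that last class the median of the smaller overhang was 286 bp, with quartiles at 102 and 817 bp, beside 131 bp and quartiles at 49 and 285 bp in the class before it.

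The share of pairs with Kcr was also read at each position of the host, where positions are percentages of the host width from its lower border. With 2000 bp or more uncovered, Kcr was present in 38.0% (31.7 to 44.7%) of the 208 pairs at position 25, in 28.4% (22.7 to 34.8%) at position 55 and in 43.3% (36.7 to 50.1%) at position 71. These positions were chosen after the curve was seen, as the highest points of the curve on either side and the lowest between them. The intervals at positions 25 and 55 overlap, and the share was also low at position 37, at 28.8% (23.1 to 35.3%). Kcr was present in 4.8% at position 1 and in 8.7% at position 99. With 1000 to 1999 bp uncovered the highest share was 67.9% of 443 pairs at position 47. With 500 to 999 bp uncovered Kcr was present in 99.3% of 453 pairs at position 51, which a Kcr region that fills most of its host must cross wherever it lies. In the class of 2000 bp or more these shares stand for 79, 59 and 90 pairs, and the counts at different positions share pairs.

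**Figure D3:**
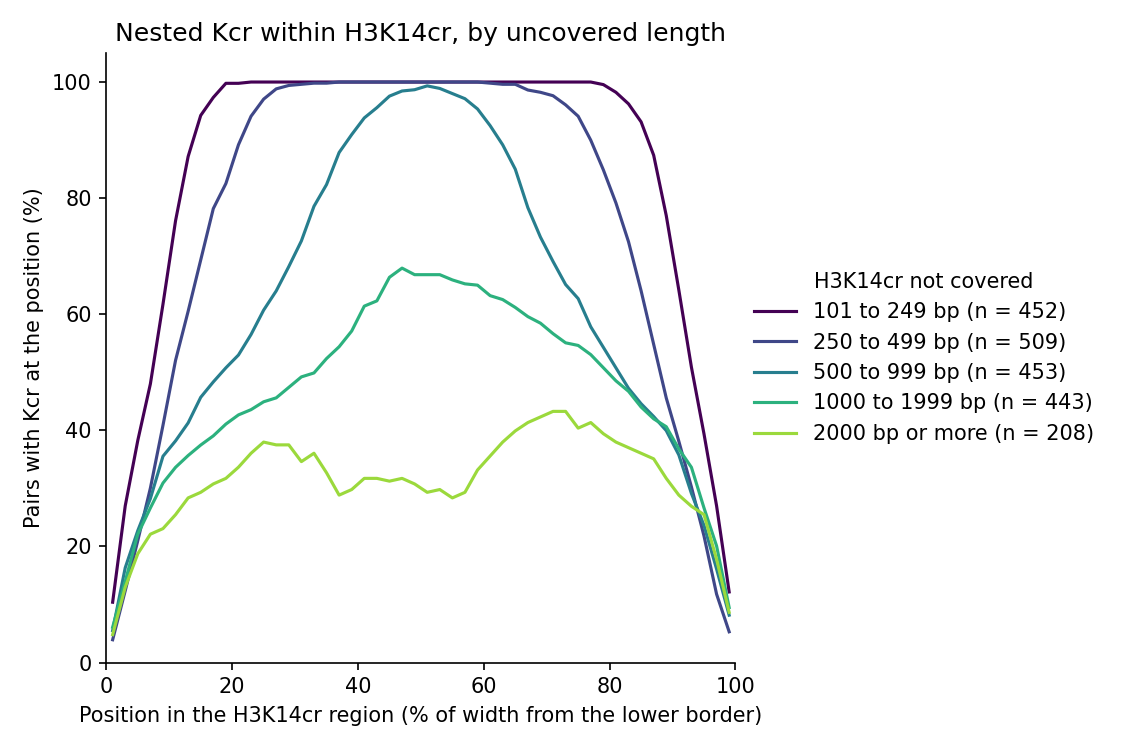
The share of nested pairs (%) in which Kcr was present at each position of the H3K14cr region (% of its width from the lower border), in 5 classes of uncovered length. The curve for 2000 bp or more (208 pairs) reads 38.0% at position 25, 28.4% at position 55 and 43.3% at position 71, positions chosen from the curve with overlapping intervals at the first 2, and the curve for 1000 to 1999 bp reads 65.9% at position 55.

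The 3 pairs with most host left uncovered were all two-sided. The first lay on chromosome 1, where H3K14cr spanned 32787396 to 32794569 (7173 bp) and Kcr 32788818 to 32790160 (1342 bp), so that 5831 bp were uncovered, 1422 bp below Kcr and 4409 bp above it. The next, on chromosome 2, had Kcr at 29875598 to 29876822 in H3K14cr at 29872413 to 29878762, with overhangs of 3185 and 1940 bp. In the third, also on chromosome 2, Kcr at 10494107 to 10495098 lay 112 bp from the higher border of H3K14cr at 10489138 to 10495210, with 4969 bp free at the lower end. The smallest share covered was 14.3%, on chromosome 12, where a Kcr region of 749 bp (6141277 to 6142026) lay in a host of 5238 bp (6137524 to 6142762). Shares of 14.8% on chromosome 6 (Kcr 17130718 to 17131435) and 15.1% on chromosome 11 (Kcr 4417063 to 4417758) came next. These shares are per pair, and the chromosome 6 host held a second nested Kcr region that covered a further 20.7% of it. None of these 3 Kcr regions touched a host border, the nearest being 736 bp away.

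Some Kcr regions sat almost exactly in the middle of a wide host. On chromosome 4, Kcr at 35316752 to 35318481 left 1156 bp of H3K14cr below it and 1163 bp above it. On chromosome 1, Kcr at 35348826 to 35350550 left 1106 and 1093 bp. On chromosome 8, Kcr at 26015272 to 26016358 left 640 and 664 bp.

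Hosts with more than 1 Kcr region were rare. Of the 2048 hosts, 2031 held a single nested Kcr region, 17 held 2 and none (0) held 3 or more. In 24 further hosts the second overlapping Kcr region was not nested, so 41 hosts had a second Kcr region of any kind. Over the whole list, 7027 overlapping pairs fell on 6981 H3K14cr regions. Most H3K14cr regions with a second Kcr region were thus hosts, and the rule favours wide H3K14cr regions as hosts. No nested Kcr region overlapped a second H3K14cr region (0 of 2065), which the rule fixes, since H3K14cr regions of the list do not overlap each other. The 17 hosts with 2 had a median width of 3149 bp (1892 to 5529 bp), and the gap between their Kcr regions had a median of 212 bp (6 to 2065 bp). In 10 of the 17 at least 1 outer border lay within 100 bp of a host border, and in 1 of them both did. The widest, on chromosome 12 at 2092583 to 2098112, held Kcr regions of 1615 and 1461 bp with 2065 bp between them, and overhangs of 238 and 150 bp outside them. The next, on chromosome 6 at 17129645 to 17134499, held Kcr regions of 717 and 1004 bp only 43 bp apart, with 1073 and 2017 bp outside. One on chromosome 1, at 37269024 to 37273418, held 1283 and 1744 bp, 32 bp apart.

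Nested Kcr regions were compared with the remaining Kcr regions of at most 2000 bp, sorted into those with matching borders (1615), those that enclosed a smaller H3K14cr region (505), those that overlapped one in a staggered way (1941) and those without overlap (3769). A further 1028 Kcr regions were wider than 2000 bp. The median width was 1188 bp for matching, 1371 bp for enclosing, 1274 bp for staggered and 1085 bp for Kcr regions without H3K14cr, beside 1158 bp for nested ones. An enclosing region has to be wide and a nested one narrow by their definitions. The nested share was 33.5% (29.4 to 37.9%) of Kcr regions under 800 bp, 17.6% (16.2 to 19.0%) at 1000 to 1199 bp and 23.0% (21.1 to 24.98%) at 1500 to 2000 bp, so it was lowest at intermediate widths. The share without H3K14cr moved in 1 direction over the same classes, from 57.4% to 40.1% and 23.4%, and the share with matching borders was highest at intermediate widths, at 3.8%, 20.5% and 13.7%.

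A host has to hold a Kcr region and an overhang of more than 100 bp, so the rule itself favours wide H3K14cr regions, and the widths below are set beside those of other H3K14cr regions as a description. Of the 2048 hosts, 857 or 41.8% (39.7 to 44.0%) were wider than 2000 bp, against 33.8% of all H3K14cr regions, 22.4% (21.3 to 23.6%) of those that overlapped Kcr without being hosts and 37.2% (36.4 to 38.1%) of those without Kcr. Counting each host once, their median width was 1836 bp (1796 to 1879 bp), beside 1342 bp (1324 to 1364 bp) and 1701 bp (1682 to 1721 bp) in those groups. From 1500 bp upwards the intervals of the share of hosts overlapped between widths, and below 1500 bp the share was lower. A narrower H3K14cr region leaves less room for Kcr and an overhang, and the part of this in the lower share was not tested. The share of H3K14cr regions that were hosts was 8.16% (7.54 to 8.83%) at 1000 to 1499 bp, 13.9% (12.9 to 15.0%) at 1500 to 1999 bp, 13.8% (12.8 to 14.9%) at 2000 to 2999 bp, 12.6% (11.0 to 14.3%) at 3000 to 3999 bp and 13.1% (10.8 to 15.8%) at 4000 bp or more. Under 1000 bp it was 2.96%. From 1000 bp upwards, the share that overlapped any Kcr region was 42.9%, 35.3%, 30.8%, 28.5% and 35.6% in the same classes. Among these overlapped regions, hosts made up 19.0%, 39.3%, 44.9%, 44.2% and 36.8%. The limit of 2000 bp on Kcr left out 214 pairs with Kcr inside H3K14cr, all in H3K14cr regions wider than 2000 bp. The rule can thus also lower the share of hosts in the wide classes.

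Distance to other regions was not used by the rule, and the intervals of its medians overlapped between nested and other regions. The nearest other Kcr region was a median of 10528 bp away (9974 to 11189 bp) from a nested one, against 10330 bp (9662 to 11155 bp) for matching, 10436 bp (9799 to 10987 bp) for staggered and 10547 bp (10107 to 11027 bp) for Kcr regions without H3K14cr. The nearest other H3K14cr region was 6335 bp (6019 to 6585 bp) from a host and 6532 bp (6409 to 6659 bp) from an H3K14cr region without Kcr. In one-border pairs the next H3K14cr region lay a median of 10899 bp (10231 to 12208 bp) beyond the shared border and 11159 bp (9797 to 12243 bp) beyond the free one. The nearer of these neighbours was on the shared side in 349 of 705 pairs, or 49.5% (45.8 to 53.2%). The Kcr regions next to a nested one along the chromosome were themselves nested in 20.3% (19.1 to 21.6%) of cases, where the figure around all Kcr regions was 18.9% and around Kcr regions without H3K14cr 18.2% (17.4 to 19.1%). Each gap joins 2 regions and is counted from both, so these cases are not independent.

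By chromosome, chromosome 4 had the highest nested share of its Kcr regions, 23.4% (20.7 to 26.2%), and chromosome 8 the lowest, 16.2% (13.8 to 18.9%). It was 16.5% (14.5 to 18.6%) on chromosome 3, 17.3% on chromosome 7, 17.9% on chromosome 1, 18.1% on chromosome 2, 18.2% on chromosome 5 and 19.2% on chromosome 6. It was 20.8% on chromosome 10, 21.0% on chromosomes 9 and 11, and 21.1% (18.3 to 24.3%) on chromosome 12. Neighbours in this order had overlapping intervals. The interval of chromosome 4 lay above those of chromosomes 1, 2, 3, 7 and 8. Chromosome 4 also had most H3K14cr regions per Kcr region, 1.95, against 1.66 on chromosome 8 and 1.59 on chromosome 3, and the part of this ratio in the nested share was not tested. In number of nested regions per Mb, chromosomes 1 (6.29), 2 (6.15) and 4 (6.06) came first and chromosome 8 (4.54) last. Neither extreme held in every setting. When Kcr was allowed to reach 50 bp past a host border, chromosome 10 came first at 28.6%, with chromosome 4 at 28.5%, and chromosome 3 came last at 20.5%. With a margin of 200 bp chromosome 7 came last at 11.6%, and chromosome 8 had 12.7%.

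Nested regions took a larger share of Kcr where Kcr was sparse. Full windows of 1 Mb were sorted by their number of Kcr regions, counted by midpoint. In the 68 windows with under 20 Kcr regions 264 of 1018 were nested, or 25.9% (23.3 to 28.7%). The share was 21.3% (19.9 to 22.7%) in 129 windows with 20 to 29, 17.1% (16.0 to 18.3%) in 119 windows with 30 to 39 and 16.8% (15.3 to 18.3%) in 51 windows with 40 or more. Between the first and last class the difference was 9.17 percentage points (95% Newcombe interval 6.14 to 12.3), and 8.13 points (4.93 to 11.5) without chromosome 4. H3K14cr regions per Kcr region fell in the same order, at 2.54, 1.87, 1.65 and 1.37. The share of Kcr regions with matching borders also fell from each class to the next. It was 17.4% in the sparsest windows and 13.5% in the densest, so the fall was not confined to nested regions. The Kcr number of a window is both what sorted it and the denominator of its share. Among Kcr regions that overlapped H3K14cr at all, the nested share was 38.9% in the sparsest windows, then 32.4% and 26.9%, and 27.4% in the densest. In absolute numbers the sparse windows held fewer, with 3.88 nested regions per window against 7.67 in the densest class.

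**Figure D4:**
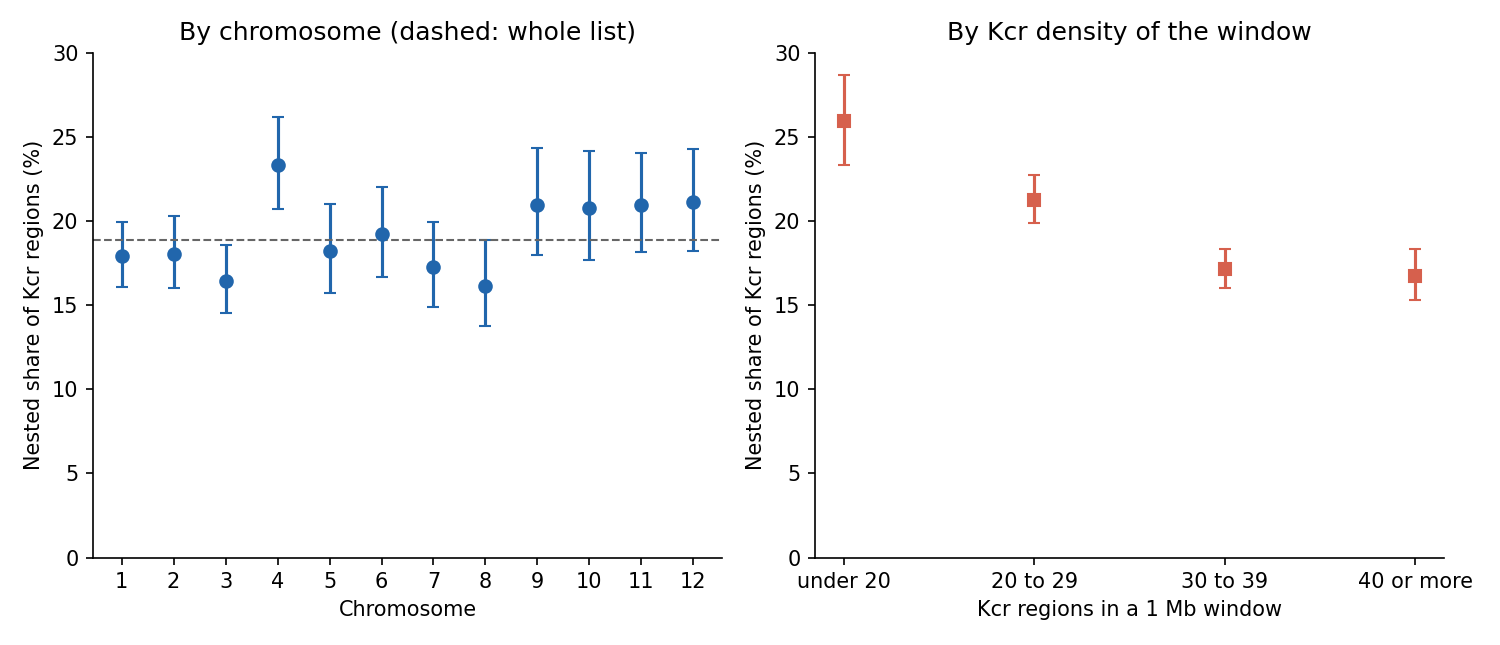
The share of Kcr regions that were nested (%, points, with 95% Wilson intervals as bars) on each of 12 chromosomes, left, with the share in the whole list dashed at 18.9%, and in 1 Mb windows sorted by their number of Kcr regions, right. Chromosome 4 is highest at 23.4%, and the share is 25.9% in windows with under 20 Kcr regions and 16.8% in windows with 40 or more.

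Within 2 Mb of a chromosome end, taken as the last region end in either list, 288 of 1925 Kcr regions were nested, or 15.0% (13.4 to 16.6%). Elsewhere 1777 of 8998 were, or 19.7% (18.9 to 20.6%), a difference of 4.79 percentage points (95% Newcombe interval 2.94 to 6.53). Kcr regions were denser near the ends than elsewhere, and the nested share was also lower in dense windows. The difference at the ends was not tested apart from Kcr density. The share with matching borders was 13.8% near the ends and 15.0% elsewhere, and the share without H3K14cr was 37.0% and 34.0%. In all these shares, Kcr regions wider than 2000 bp count in the denominator only, whether or not they overlapped H3K14cr. Over the 367 full windows the median number of nested regions was 5 (interquartile range 4 to 7). The most, 16 of 43 Kcr regions, lay on chromosome 2 between 27000001 and 28000000, beside 78 H3K14cr regions. The next window, on chromosome 1 between 30000001 and 31000000, held 15 of 63. On chromosome 9 between 21000001 and 22000000, 13 of 36 were nested and none (0) of those up to 2000 bp wide had matching borders. In 6 windows no Kcr region was nested, among them 1 on chromosome 1 between 41000001 and 42000000 that held 25 Kcr and 46 H3K14cr regions.

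The thresholds of the rule fell within continuous ranges of values. The widest members had Kcr regions of 1995 bp on chromosome 3 (2169964 to 2171959) and 1992 bp on chromosome 1 (17560436 to 17562428), and the first left out by width were both 2001 bp wide, on chromosome 1 (23838685 to 23840686) and chromosome 3 (10650854 to 10652855). A further Kcr region of 1992 bp, on chromosome 11 (14378448 to 14380440), covered 94.0% of its host, the most of any member. At the margin, a pair on chromosome 1 (Kcr 18401046 to 18401991, larger overhang 101 bp) was in, as was one on chromosome 2 (Kcr 23965515 to 23966918, 101 bp), while pairs with 100 bp on chromosome 1 (Kcr 15023074 to 15024194) and chromosome 2 (Kcr 29940477 to 29941856) were out. At the host border, Kcr regions ending or starting on the same base as the host were in, as on chromosome 1 at 8797639 and at 13774886. A Kcr region on chromosome 1 that ended at 19074207, 1 bp past its H3K14cr region, was out, and so was one on chromosome 2 that started at 13810249, 1 bp before it. In all, 2781 pairs had Kcr wholly inside H3K14cr, of which 502 had matching borders and 214 had a Kcr region over 2000 bp.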

How the data were processed

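ChIP-seq regions were compared between 2 lists, 1 for the 2 Kcr libraries and 1 for the 2 H3K14cr libraries. The submitters' processing notes name Bowtie as a tool, without its version. Which genome build and peak caller were used, at which threshold, and how replicates and the mock sample entered, was not stated in those notes or the labels. As deposited by the authors, the lists hold 3 columns (chromosome, start, end) and no value per region, so a stricter threshold could only be imitated by width. Whether starts count from 0 or 1 is unknown, and positions are printed as deposited. Width is end minus start. Overlap needed 1 bp, and 0 regions of one list only touched one of the other.

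Each Kcr region got 1 class, the first that applied of wider than 2000 bp, nested, matching, enclosing, staggered and without H3K14cr. Intervals are 95% Wilson intervals for shares, Newcombe intervals for differences of shares and exact binomial intervals from order statistics for medians. Python 3.11.15, NumPy 2.4.6, pandas 2.3.3, SciPy 1.17.1 and Matplotlib 3.10.9 were used, and the procedures were tested on simulated lists. Alternatives changed the 100 bp margin, the width limit, containment, merging, minimum width and the 50 bp border limit. The members and lists were chosen with earlier results of these data known. Regions are named by fixed ranks (most uncovered, least covered, widest, most central, identical borders, hosts with 2 Kcr regions, nearest the thresholds). The windows named were chosen after their values were seen. The gene table at hand belongs to another assembly, ASM3414082v1, so genes and sequences were not used here.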

Additional observations from a re-analysis of the deposited data

How the results depend on the processing

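No paired analysis was possible because the lists carry no value for a single library, which also means that no replicate could be left out. Successive one-border pairs shared a side in 48.3%, but in 51.6% where Kcr could reach 50 bp past a border and in 50.8% with borders shared within 100 bp, so neither side of 50% held. The side of the shared border, the side in successive pairs and the gap from a host to the next H3K14cr region stayed within their intervals in every alternative run on them. The number of nested regions stayed within 1.5 times, from 1457 to 2649. Their share of the Kcr list was 21.6% with a margin of 50 bp, 13.9% with 200 bp, 20.9% without a width limit, 24.3% where Kcr could reach 50 bp past a border and 17.2% with regions of at least 1000 bp only. With the 50 bp margin, the 200 bp margin and the reach past a border, the median share covered was 71.9%, 58.7% and 69.7%, the median uncovered length 442, 847 and 502 bp, and the share of one-border pairs 39.1%, 30% and 48.8%. That last share was 20.4% with borders shared within 25 bp and 56.5% within 100 bp, where two-sided pairs were no longer the majority. Hosts with 2 or more nested regions numbered 26 with the reach past a border, 10 after merging and 7 with wide regions only, and the gap to the nearest Kcr region was 12509 bp in the last case, where fewer regions were left. Chromosome 4 had 17.6% with the 200 bp margin, 26.7% without a width limit and 28.5% with the reach past a border, and chromosome 8 had 12.7% and 21.7% in the first and last of these. The difference between sparse and dense windows, whose alternatives were chosen after seeing the data, was 5.90 points with the 200 bp margin and 6.13 with wide regions only. Counted over overlapping Kcr regions it was 11.5 points (7.19 to 15.8). In those settings it was 7.16 (3.28 to 11.2) and 5.97 (1.23 to 10.4), both below the interval of the main setting. The difference at chromosome ends stayed within its interval in each alternative. It was lowest with the 200 bp margin, at 2.96 points (1.29 to 4.49), close to the lower bound of that interval. Placement relative to genes was not run. Without read depth, a stretch of H3K14cr without Kcr cannot be told from Kcr signal under the threshold of its list.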
